A study of Homo sapiens with 8 samples.

Results

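The genes described here are 10 regulators of the passage from the G1 phase to the S phase of the cell cycle, namely the cyclins CCND1, CCND3, CCNE1 and CCNE2, the transcription factors E2F1, E2F2, E2F3, E2F7 and E2F8, and the pocket protein RBL1. They were taken by gene symbol from the 60230 genes of one count table, and all 10 were matched to 1 Ensembl gene each and passed the filter on low counts. The cells were HepG2, a human line from a liver tumour, engineered to overexpress the drug-metabolising cytochrome CYP2C19 and kept under blasticidin in every group. RNA was sequenced from 4 groups of 2 libraries, labelled day 1 and day 2 and here called replicates 1 and 2: DMSO, the solvent control, compound 4 (labelled metylcresol), compound 5 (tetrabut) and compound 6 (cyclohexil). Each compound was given for 24 h at its own IC50, the concentration that inhibited growth by a fixed share, so the doses were close but not equal. The design asked whether these plastic-related compounds are toxic to such cells. The line is a tumour line with an added enzyme, and nothing in the labels says that the 2 libraries of a group came from independent cultures, so the p-values measure the spread between these libraries, which may be technical. The labels give the day as a time while the methods describe replicates after a single incubation. If the days are times, the 2 libraries of a group differ in time as well.

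All 3 compounds are bisphenol antioxidants, made of a pair of phenol rings joined by a short carbon bridge. Compound 4 carries a tert-butyl and a methyl group on each ring. Compound 6 has a cyclohexyl group in the place of the tert-butyl group. Compound 5 differs from compound 4 in having tert-butyl groups at both positions of each ring and an ethylidene instead of a methylene bridge.

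In G1, D cyclins switch on the kinases CDK4 and CDK6 in response to growth signals, and E cyclins then switch on CDK2. These kinases phosphorylate the pocket proteins RB1, RBL1 and RBL2, which until then hold E2F factors on promoters in a repressed state. The released activators E2F1, E2F2 and E2F3 raise transcription of the genes for DNA synthesis and also of E2F7 and E2F8, atypical family members that bind the same promoters and repress them, so that the wave of E2F transcription ends. E2F genes, CCNE1, CCNE2 and RBL1 are themselves known E2F targets. In adult liver these genes are low in resting hepatocytes and are used during regeneration and in tumour lines that divide.

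Depth ran from 9791659 to 17814595 counts per library, and levels are given as CPM, counts relative to the TMM-adjusted size of each library. The 8 hepatocyte and HepG2 markers (ALB, APOA1, APOB, TTR, SERPINA1, AFP, HNF4A and TF) were present in every library, with a summed level of 50464 to 54482 CPM in DMSO, 34865 to 42272 with compound 4, 43178 to 44480 with compound 5 and 37548 to 43663 with compound 6. CYP2C19 itself stood at 16.4 to 27.7 CPM in DMSO, 31.4 to 44.3 with compound 4, 37.96 to 52.8 with compound 5 and 21.2 to 23.9 CPM with compound 6. Of the blood markers reported here, PTPRC and CD3E were at 0 in all libraries and LYZ lay at 1380 to 2164 CPM. The fibroblast markers summed to at most 0.102 CPM, with COL1A2, DCN and LUM at 0, and the endothelial markers to 0.740 to 2.08 CPM, with KDR at 0. Among the liver markers, ALB, APOA1, APOB, SERPINA1, AFP and TF had lower means than DMSO with every compound, but HNF4A and TTR did not. HNF4A had a mean of 306 CPM in DMSO and 325, 274 and 322 CPM with compounds 4, 5 and 6. TTR had 80.4 CPM in DMSO and 95.7, 69.5 and 76.3 CPM in the same order. The lower sum of liver markers went with treatment, as did the higher CYP2C19 level with compounds 4 and 5. The part of either in the results below was not tested.

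RefSeq (GRCh38.p14) promoter windows, from 250 bases before to 50 after a start site, were at hand for 7 of the 10 genes, those of CCND3, CCNE1, E2F1, E2F2, E2F3, E2F7 and RBL1, and not for CCND1, CCNE2 and E2F8. They were searched on both strands for TTTNNCGC, the core of the sequence that E2F factors bind. At least 1 match stood in 4 of the 7 genes (57.1%), against 8.23% of all 27305 genes with a RefSeq window and 6.89% of all 35116 windows. Those 27305 genes were not limited to genes expressed or tested here. The 3 narrower spellings TTTCGCGC, TTTGGCGC and TTTCCCGC, which are contained in the wider one, occurred in 4 of the 7 genes and in 3.3% of the 27305. Below are 4 of the windows, each on the minus strand of the genome. They are written 5′ to 3′ in the gene's direction, with the matched letters in capitals. E2F2, RBL1 and E2F7 were called lower with a compound and E2F1 was not. A link between matches and expression was not tested. The windows are E2F2 at chr1:23531184-23531483, RBL1 at chr20:37095948-37096247, E2F7 at chr12:77065520-77065819 and, for contrast, E2F1 at chr20:33686336-33686635.
E2F2: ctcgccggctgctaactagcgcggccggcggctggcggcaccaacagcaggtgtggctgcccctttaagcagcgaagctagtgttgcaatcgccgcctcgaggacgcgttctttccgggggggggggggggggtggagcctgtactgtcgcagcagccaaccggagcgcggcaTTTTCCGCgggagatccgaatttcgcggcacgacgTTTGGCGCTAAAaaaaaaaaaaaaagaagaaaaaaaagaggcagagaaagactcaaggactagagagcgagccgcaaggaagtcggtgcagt
RBL1: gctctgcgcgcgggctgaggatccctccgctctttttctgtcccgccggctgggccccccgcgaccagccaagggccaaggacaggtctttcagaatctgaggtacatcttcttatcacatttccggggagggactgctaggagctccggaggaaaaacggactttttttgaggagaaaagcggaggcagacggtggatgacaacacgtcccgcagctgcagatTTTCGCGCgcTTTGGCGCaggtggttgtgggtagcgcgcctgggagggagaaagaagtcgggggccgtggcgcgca
E2F7: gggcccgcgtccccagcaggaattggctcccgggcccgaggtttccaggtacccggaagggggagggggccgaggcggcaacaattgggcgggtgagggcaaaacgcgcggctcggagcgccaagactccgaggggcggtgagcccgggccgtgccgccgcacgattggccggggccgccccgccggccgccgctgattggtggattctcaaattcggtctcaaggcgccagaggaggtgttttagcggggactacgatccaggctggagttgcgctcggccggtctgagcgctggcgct
E2F1: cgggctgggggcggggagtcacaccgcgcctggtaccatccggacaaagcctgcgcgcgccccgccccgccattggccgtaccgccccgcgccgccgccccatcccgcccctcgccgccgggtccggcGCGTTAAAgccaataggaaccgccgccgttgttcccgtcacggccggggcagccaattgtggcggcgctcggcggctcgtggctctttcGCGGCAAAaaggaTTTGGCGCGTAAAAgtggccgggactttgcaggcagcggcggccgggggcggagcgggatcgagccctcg
E2F2 held 3 matches, the first letters of which lay at -77, -42 and -38 from the start site, with the last 2 overlapping. RBL1 held 2, at -26 and -16. E2F1 had 4 matches, at -122, -33, -20 and -14, and E2F3 had 1, at -53 in 1 of its windows. The windows of CCND3, CCNE1 and E2F7 held no run of these letters. A match is a string of letters and not a measured binding site, and its absence from a window of this size says nothing about the factor.

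In the cells given DMSO, the 10 genes spanned a wide range of expression. Levels of different genes were compared per kilobase of exon, as CPM per kb from the GRCh38 GENCODE annotation. CCND1 was the highest, at 48.0 ± 5.57 CPM per kb (SD, n = 2), followed by E2F1 at 24.1 ± 3.50, CCNE1 at 10.5 ± 0.168 and RBL1 at 7.93 ± 0.261 CPM per kb. E2F2, at 4.83 ± 0.590, and E2F3, at 4.23 ± 0.937 CPM per kb, overlapped in their libraries and did not differ beyond their spread. The same held for E2F7, at 2.32 ± 0.195, and E2F8, at 2.09 ± 0.442 CPM per kb. CCND3 followed at 1.54 ± 0.0400 CPM per kb, and CCNE2 was the lowest at 0.560 ± 0.232 CPM per kb. CCND1 and CCNE1 thus stood above the other D and E cyclins, and CCND2, the remaining D cyclin, never exceeded 4 counts in a library.

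Compared with DMSO, the genes that fell were the atypical repressors E2F7 and E2F8, the activator E2F2 and the pocket protein gene RBL1. With compound 4, 4 of the 10 genes passed the test, all of them lower: E2F7, E2F8, E2F2 and RBL1. In that comparison 3.91% of the 13400 genes tested were called lower and 9.51% were called in either direction. With compound 5, E2F7 and E2F2 passed, 2 of the 10 genes, where 2.95% of all genes were called lower and 8.3% in either direction. With compound 6 none of the 10 passed, where 0.0821% of all genes were called lower and 0.575% in either direction. By the unadjusted p under 0.05, E2F2, E2F7, E2F8 and RBL1 were lower with each compound, 4 of 10 genes each time, against 12.4%, 12.8% and 7.72% of all genes for compounds 4, 5 and 6. None of the 10 genes was called higher, where 5.6%, 5.35% and 0.493% of all genes were. The 2 treated libraries lay below both DMSO libraries for 5 of the 10 genes with compound 4, 4 with compound 5 and 7 with compound 6, where 28%, 28.5% and 26% of all genes tested did so. The 7 with compound 6 include CCND3, CCNE1 and E2F1, at an unadjusted edgeR p of 0.56, 0.6 and 0.08. The 5 with compound 4 include CCNE1, at an unadjusted edgeR p of 0.21. For CCNE1, the higher library of compound 6 was at 26.433 CPM and the lower DMSO library at 26.441 CPM. The median log2-fold change over the 10 genes was -0.20 with compound 4, -0.13 with compound 5 and -0.26 with compound 6, beside 0.01, 0.00 and 0.02 over all genes tested. The 3 comparisons share the same DMSO libraries, so these counts are not independent of each other. In bulk RNA, fewer cells that express a gene and less RNA of it per cell cannot be told apart.

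**Figure D1:**
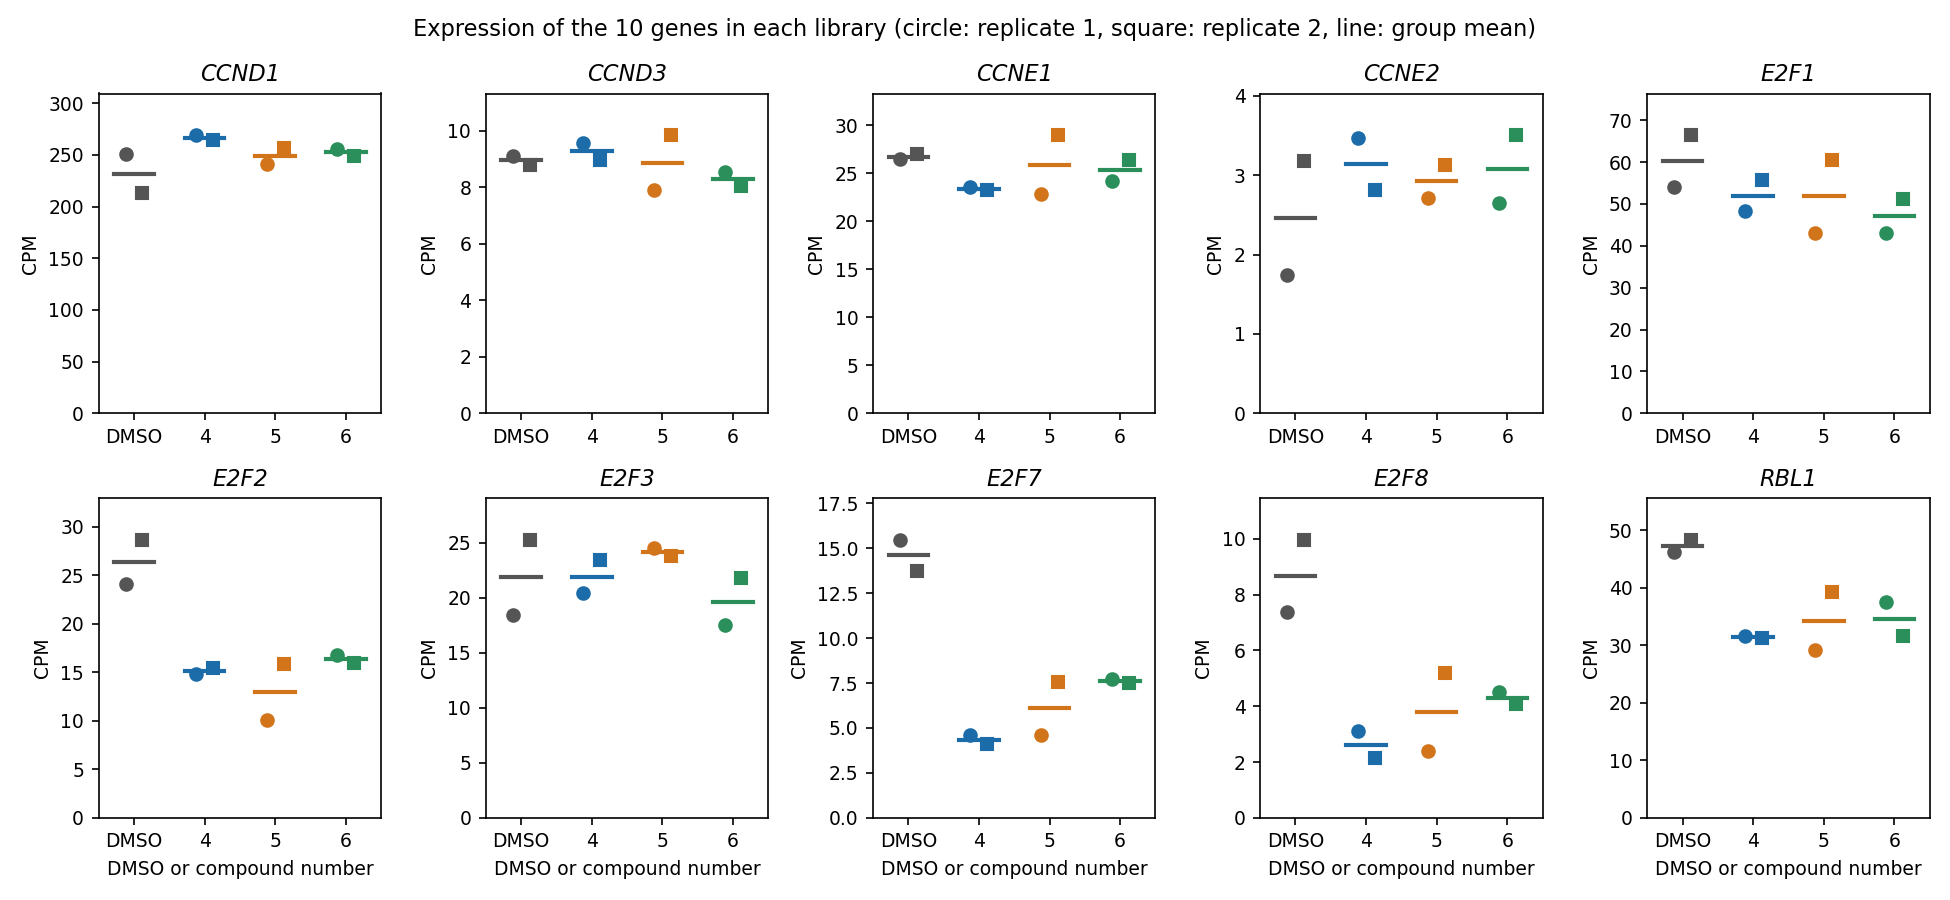
Expression in CPM (vertical axis, from 0) of each of the 10 genes in the 8 libraries, by group on the horizontal axis, with circles for replicate 1, squares for replicate 2 and a line at the group mean. The treated libraries of E2F2, E2F7, E2F8 and RBL1 all lie below both DMSO libraries, while those of CCND3, CCNE2 and E2F3 mix with DMSO for most compounds.

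E2F7 (ENSG00000165891, GRCh38 chr12:77021247-77065580, minus strand), an atypical E2F that represses E2F target promoters, showed the largest fall with compound 5 and about the same fall as E2F8 with compound 4. It stood at 15.5 and 13.7 CPM in the DMSO libraries (151 and 164 counts). With compound 4 it was at 4.60 and 4.11 CPM (49 and 54 counts), with compound 5 at 4.61 and 7.57 CPM, and with compound 6 at 7.75 and 7.48 CPM. Every treated library lay below both DMSO libraries, and the 2 libraries of compound 4 were the lowest of the 8. The change with compound 4 was a log2-fold change of -1.75 (SE 0.24, 95% interval -2.29 to -1.20, edgeR adjusted p = 0.005), which is 0.298 times the DMSO level. Compound 5 gave -1.24 (SE 0.23, 95% interval -1.76 to -0.72, edgeR adjusted p = 0.015). For compound 6 the value was -0.94 (SE 0.23, 95% interval -1.46 to -0.41), which missed the threshold at an edgeR adjusted p of 0.088.

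E2F8 (ENSG00000129173, chr11:19224063-19241620, minus strand) is the second atypical repressor and can pair with E2F7. It was measured at 7.38 and 9.97 CPM in DMSO, at 3.10 and 2.13 CPM with compound 4, at 2.39 and 5.18 CPM with compound 5 and at 4.51 and 4.07 CPM with compound 6. Treated and control libraries did not overlap, although the 2 libraries of compound 5 lay far apart, at 29 and 91 counts. The log2-fold change was -1.75 with compound 4 (SE 0.37, 95% interval -2.57 to -0.92, edgeR adjusted p = 0.02). The values for compound 5, -1.17 (SE 0.34, 95% interval -1.93 to -0.40, edgeR adjusted p = 0.064), and compound 6, -1.02 (SE 0.35, 95% interval -1.81 to -0.23, edgeR adjusted p = 0.17), did not pass. With at most 119 counts in a library, E2F8 was measured with less precision than E2F7.

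E2F2 (ENSG00000007968, chr1:23506430-23531220, minus strand) is an activator that RB1 holds in check. Its level was 24.1 and 28.6 CPM in DMSO, 14.8 and 15.4 CPM with compound 4, 10.0 and 15.8 CPM with compound 5, and 16.8 and 15.9 CPM with compound 6. All treated libraries were below both controls, with replicate 1 of compound 5 the lowest. The log2-fold change was -0.80 with compound 4 (SE 0.20, 95% interval -1.25 to -0.35, edgeR adjusted p = 0.037) and -1.01 with compound 5 (SE 0.20, 95% interval -1.46 to -0.57, edgeR adjusted p = 0.019). With compound 6 it was -0.69 (SE 0.20, 95% interval -1.14 to -0.24), not past the threshold at an edgeR adjusted p of 0.12.

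E2F1 and E2F3, the other activators, were not called with any compound. E2F1 (ENSG00000101412, chr20:33675683-33686404, minus strand), the activator with the highest level in these cells, was at 54.0 and 66.4 CPM in DMSO. It was at 48.3 and 55.7 CPM with compound 4, at 43.1 and 60.5 CPM with compound 5 and at 43.2 and 51.1 CPM with compound 6. Only the libraries of compound 6 lay wholly below DMSO. The log2-fold changes for compounds 4, 5 and 6 were -0.21, -0.21 and -0.36, and their 95% intervals (-0.61 to 0.19, -0.61 to 0.19 and -0.76 to 0.05) included 0. E2F3 (ENSG00000112242, chr6:20401906-20493715, plus strand) was at 18.4 and 25.3 CPM in DMSO and between 17.6 and 24.5 CPM in all treated libraries, overlapping its controls with every compound. Its log2-fold changes were 0.00, 0.14 and -0.16, with 95% intervals of -0.39 to 0.39, -0.25 to 0.53 and -0.56 to 0.24. Whether the activators differ from each other in their response was not tested.

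RBL1 (ENSG00000080839, chr20:36996349-37095995, minus strand) encodes the pocket protein p107, which binds repressive E2F complexes and whose own gene is E2F-driven. It was measured at 46.1 and 48.3 CPM in DMSO, 31.5 and 31.2 CPM with compound 4, 29.2 and 39.3 CPM with compound 5 and 37.5 and 31.6 CPM with compound 6. The treated libraries all lay below both controls. The log2-fold change with compound 4 was -0.59 (SE 0.16, 95% interval -0.94 to -0.24, edgeR adjusted p = 0.045), which is close to the threshold. The values with compound 5, -0.46 (SE 0.16, edgeR adjusted p = 0.094), and compound 6, -0.45 (SE 0.16, edgeR adjusted p = 0.17), did not pass. The 2 other pocket protein genes, RB1 and RBL2, were not called with any compound.

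None of the cyclins was called with any compound. CCND1 (ENSG00000110092, chr11:69641087-69654474, plus strand), the D cyclin that starts phosphorylation of the pocket proteins, was at 250.7 and 212.6 CPM in DMSO and between 241.1 and 269.0 CPM in the treated libraries. With compound 4 both libraries, at 269.0 and 264.5 CPM, exceeded both controls, as was the case for 30.4% of all genes. Its log2-fold change there was 0.20 (SE 0.11, 95% interval -0.04 to 0.44, edgeR adjusted p = 0.25), and the values for compounds 5 and 6 were 0.10 and 0.12. The lower ends of the 95% intervals of CCND1 were -0.04, -0.14 and -0.12 for compounds 4, 5 and 6. CCND3 (ENSG00000112576, chr6:41934933-42050357, minus strand), a further D cyclin, lay between 7.90 and 9.84 CPM in all 8 libraries, with log2-fold changes of 0.05, -0.01 and -0.11.

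CCNE1 (ENSG00000105173, chr19:29811898-29824308, plus strand), the main activator of CDK2 at the G1/S boundary, was at 26.4 and 27.0 CPM in DMSO. It was at 23.6 and 23.3 CPM with compound 4, below both controls, and at 22.8 and 28.96 CPM with compound 5, on either side of them. With compound 6 it was at 24.2 and 26.4 CPM. The log2-fold changes were -0.19, -0.04 and -0.08, with 95% intervals of -0.51 to 0.13, -0.36 to 0.27 and -0.40 to 0.24. CCNE2 (ENSG00000175305, chr8:94879770-94896678, minus strand), the second E cyclin, was low, with 17 to 55 counts per library and 1.74 to 3.51 CPM. Its log2-fold changes of 0.33, 0.23 and 0.30 had wide 95% intervals (-0.46 to 1.12, -0.55 to 1.02 and -0.50 to 1.10), so a change of this size was not detectable with these libraries. CCNE2 overlaps INTS8 and NDUFAF6 on the opposite strand, and CCND1 overlaps LTO1. The library kit keeps strand, but whether the counting used it is not given in the sources used here.

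**Figure D2:**
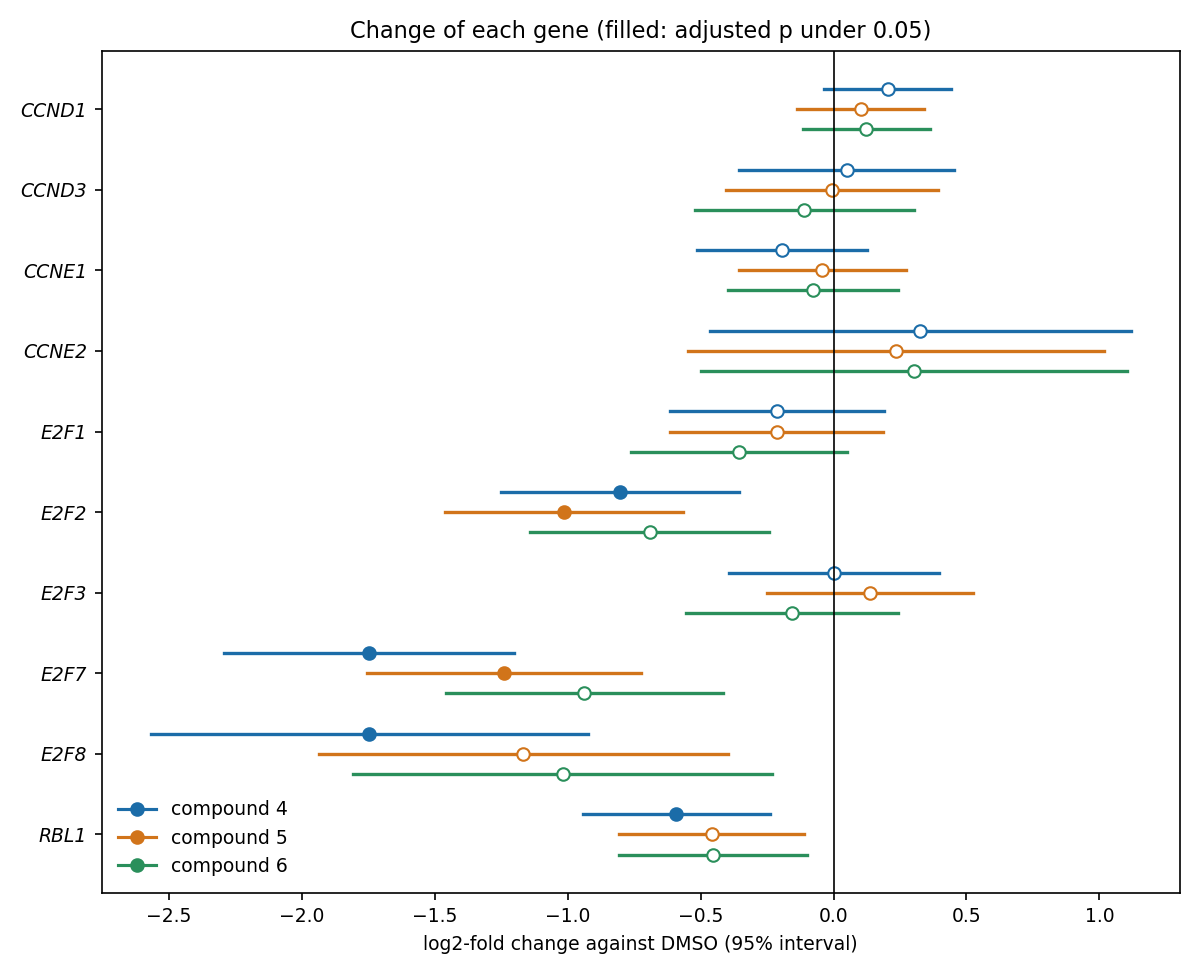
Log2-fold change against DMSO (horizontal axis) with its 95% interval for each of the 10 genes and 3 compounds, in which filled points passed an edgeR adjusted p of 0.05. The 6 filled points belong to E2F2, E2F7, E2F8 and RBL1 and all lie below 0, and the intervals of CCND1, CCND3, CCNE1, CCNE2, E2F1 and E2F3 include 0 with every compound.

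The calls rested on few libraries. With compound 4, leaving out replicate 1 of DMSO kept E2F7 alone past the threshold, and leaving out replicate 2 of DMSO kept none of the 10 genes. Without replicate 1 of compound 4, E2F7 and E2F8 passed, and without its replicate 2 none did. Without either library of compound 6, which is not in this comparison but enters the shared spread and the filter, E2F7 and E2F8 passed. With compound 5, none passed without either DMSO library or without its own replicate 1, and 4 passed without its replicate 2. The calls over all genes moved too, from 1275 for compound 4 to between 43 and 1681 as one library was left out. With compound 6, 2 genes, E2F2 and E2F7, passed without either library of compound 5, and 4 passed when only its own and the DMSO libraries were fitted. In the latter fit the calls over all genes rose from 77 to 1023 of 12998, and without replicate 1 or 2 of compound 5 to 432 or 396. For compound 5 they lay between 46 and 1814 with 1 library left out, against 1112 with all. All 192 alternative values of E2F2, E2F7, E2F8 and RBL1 against DMSO were below 0. They came from leaving out libraries or from another test, scaling or filter. Every treated library of these genes lay below both DMSO libraries, so leaving out a library could not turn the sign. The alternatives reuse the same libraries and add no separate evidence on the direction.

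**Figure D3:**
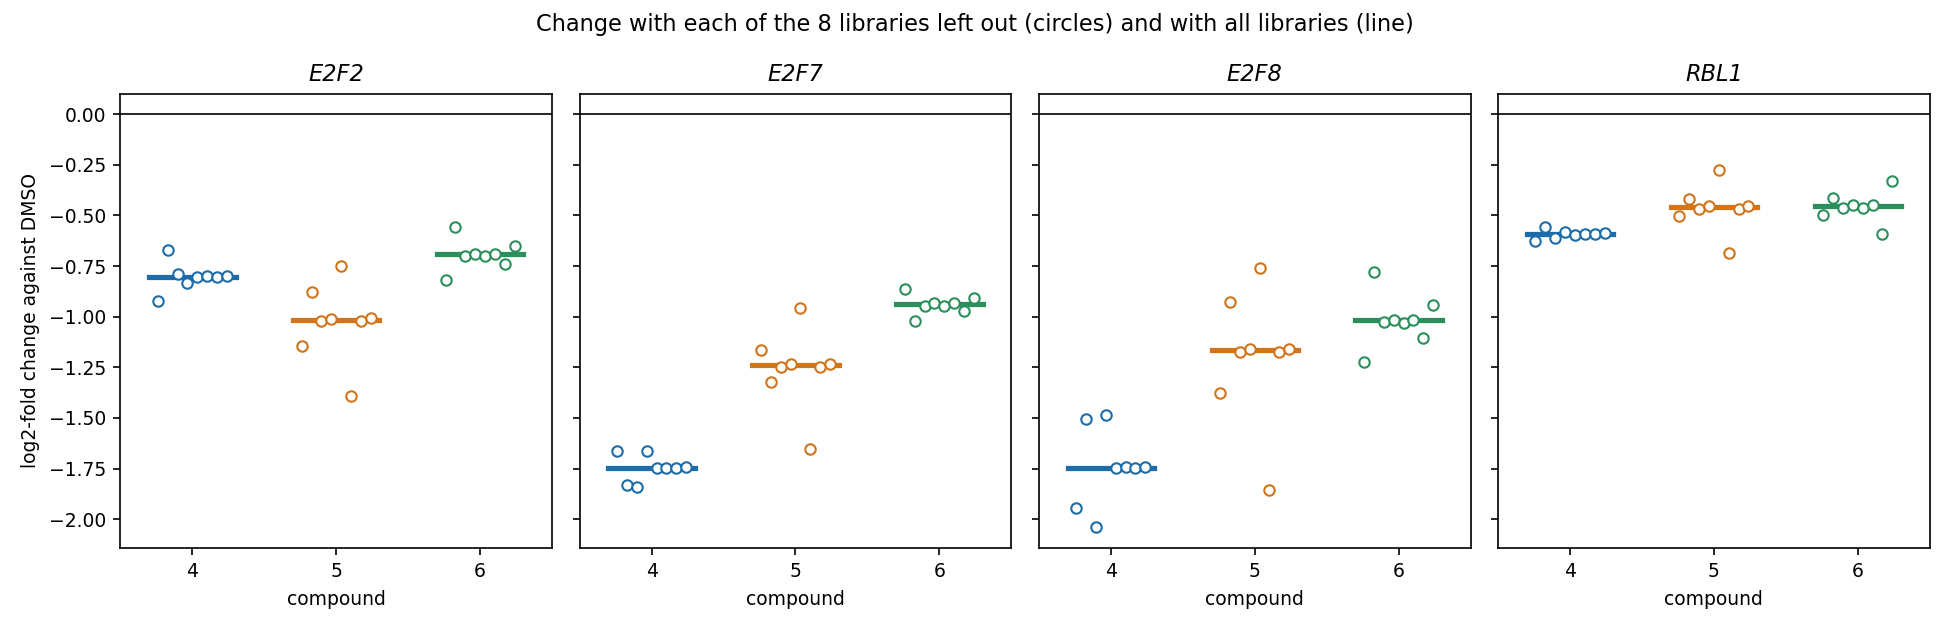
Log2-fold change against DMSO (vertical axis) of E2F2, E2F7, E2F8 and RBL1 by compound (horizontal axis), with a line for the value from all libraries and a circle for each value with 1 of the 8 libraries left out. All circles lie below 0, and they are most spread for compound 5, where E2F8 ran from -1.86 without its replicate 2 to -0.76 without its replicate 1.

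The 2 libraries of compound 5 differed in the same direction in most of the 10 genes. How many of all genes tested did so was not counted, so this is not shown to be particular to the 10. In 9 of the 10 genes, all but E2F3, replicate 2 was higher than replicate 1, compared with 7 of 10 in DMSO, 3 of 10 with compound 4 and 4 of 10 with compound 6. Without its replicate 1, the compound 5 values were -0.75 for E2F2, -0.96 for E2F7, -0.76 for E2F8 and -0.28 for RBL1, and without its replicate 2 they were -1.39, -1.65, -1.86 and -0.69.

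The compounds were compared directly at the IC50 of each, at doses that were close but not equal. None of the 10 genes passed in any of the 3 comparisons by edgeR, where 0.313% of all genes were called for compound 4 against 5, 1.03% for compound 6 against 5 and 0% for compound 4 against 6. DESeq2 and every other alternative also called none of the 10. At an unadjusted p under 0.05 the count was 0, 0 and 1 of the 10 genes, against 16.2%, 18.5% and 7.05% of all genes. The 1 was E2F7, which was lower with compound 4 than with compound 6 by a log2-fold change of -0.81 (SE 0.25, 95% interval -1.38 to -0.24, edgeR adjusted p = 0.53). Compounds 4 and 6 differ in having tert-butyl or cyclohexyl groups on the rings. For the same pair, E2F8 differed by -0.73 (95% interval -1.60 to 0.14), E2F2 by -0.11 (-0.57 to 0.35) and RBL1 by -0.14 (-0.49 to 0.22). Between compounds 4 and 5, which differ in the bridge and in a group on each ring, the difference was -0.51 for E2F7 (95% interval -1.07 to 0.05), -0.58 for E2F8 (-1.43 to 0.27), 0.21 for E2F2 (-0.24 to 0.67) and -0.13 for RBL1 (-0.48 to 0.22). Compounds 6 and 5 differed by 0.30 for E2F7 (95% interval -0.24 to 0.84), 0.15 for E2F8 (-0.66 to 0.96), 0.32 for E2F2 (-0.14 to 0.78) and 0.01 for RBL1 (-0.35 to 0.36). The intervals of E2F7 and E2F8 are wide, so a like response of these genes to the compounds is not shown.

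None of the cyclins or other activators passed between compounds. CCND1 differed by 0.10 for compound 4 against 5 (95% interval -0.14 to 0.34), by 0.02 for compound 6 against 5 (-0.22 to 0.26) and by 0.08 for compound 4 against 6 (-0.16 to 0.32). CCNE1 differed by -0.15, -0.04 and -0.11 in the same order, and E2F1 by 0.00, -0.14 and 0.14. E2F3 differed by -0.14 (95% interval -0.52 to 0.25), -0.29 (-0.69 to 0.10) and 0.16 (-0.24 to 0.56). The least certain were the differences of CCNE2, whose interval between compounds 4 and 5 ran from -0.67 to 0.85.

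The genes that act around these 10 were described in 7 lists of 75 genes, of which CCND2 and CDKN1C (0 counts) were too low to test. The lists were chosen with earlier results of these data known, so counts and medians over them are descriptions. Among the partners of the cyclins, CDK2, the kinase of E and A cyclins, was at 46.1 and 50.1 CPM in DMSO and at 32.5 and 29.5 CPM with compound 4, a log2-fold change of -0.64 (edgeR adjusted p = 0.029). CCNA2, the S-phase cyclin, fell from a mean of 91.6 CPM to 45.3 CPM, by 1.02 on the log2 scale (edgeR adjusted p = 0.025). These were the 2 called by edgeR of the 12 genes tested in this list with compound 4, and none was called with compounds 5 and 6. DESeq2 called 4, 1 and 1 genes of the list with compounds 4, 5 and 6, and 1384, 1284 and 518 genes in all. Of all genes tested, edgeR called 3.91%, 2.95% and 0.0821% lower. When the replicate number entered the fit as a block, CCNA2 also passed with compound 5 (log2-fold change -0.65, edgeR adjusted p = 0.031). CDK4 and CDK6, the kinases of the D cyclins, were not called, with log2-fold changes of -0.27, -0.03 and -0.28 for CDK4 and -0.14, -0.16 and -0.12 for CDK6 with compounds 4, 5 and 6.

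CDK inhibitors went in both directions. CDKN2B, which encodes p15, an inhibitor of CDK4 and CDK6, rose from 5 and 9 counts in DMSO to 34 and 80 with compound 4 and 74 and 51 with compound 5, and was counted 22 and 69 times with compound 6. Its log2-fold changes were 2.85 (edgeR adjusted p = 0.032), 2.76 (edgeR adjusted p = 0.039) and 2.74 (edgeR adjusted p = 0.094), from a low level in DMSO. CDKN2C, which encodes p18 of the same family, fell with compound 4 by 1.32 (edgeR adjusted p = 0.029), from 16.8 and 17.0 to 7.51 and 6.08 CPM. CDKN1A, the p21 gene that p53 induces, had log2-fold changes of 0.24, -0.02 and 0.16, and CDKN1B, the p27 gene, of -0.15, 0.17 and -0.07, none of them called. In all, edgeR called 1 of 6 inhibitors higher and 1 lower with compound 4, 1 higher with compound 5 and none with compound 6. DESeq2 called 2, 1 and 1 of the inhibitors, and 1384, 1284 and 518 genes in all. Of all genes tested, edgeR called 5.6%, 5.35% and 0.493% higher and 3.91%, 2.95% and 0.0821% lower with compounds 4, 5 and 6.

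Of the 7 other E2F, DP and pocket protein genes (E2F4, E2F5, E2F6, TFDP1, TFDP2, RB1 and RBL2), TFDP2, a dimer partner of E2F factors, was the 1 gene called, lower with compound 4 by 0.56 on the log2 scale (edgeR adjusted p = 0.016). RB1, the retinoblastoma gene, lay between 44.6 and 54.3 CPM in all libraries, with log2-fold changes of -0.07, -0.02 and -0.04. In the MuvB and MYB complex, which carries cell cycle transcription on into G2, FOXM1 fell by 0.87 (edgeR adjusted p = 0.021) and MYBL2 by 0.87 (edgeR adjusted p = 0.03) with compound 4, 2 of 8 genes. In the ubiquitin ligase list, SKP2, which targets p27 for breakdown, fell by 1.18 (edgeR adjusted p = 0.0063) and FBXO5, an inhibitor of the anaphase-promoting complex and an E2F target, by 0.80 (edgeR adjusted p = 0.047) with compound 4, 2 of 10 genes. By edgeR with group as the only term, none of these 3 lists had a gene called with compounds 5 or 6. DESeq2 called 2 genes of the MuvB and MYB list with compound 6 and 1 ubiquitin ligase gene with each of compounds 5 and 6. In all, DESeq2 called 1284 genes with compound 5 and 518 with compound 6. Of all genes tested, edgeR called 3.91%, 2.95% and 0.0821% lower with compounds 4, 5 and 6. With the replicate block, 1 gene of the MuvB and MYB list passed with compound 5, where 1429 genes passed in all.

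The 20 other E2F target genes, which encode parts of DNA replication, nucleotide synthesis and repair, were below DMSO for 20 genes with compound 4, 19 with compound 5 and 20 with compound 6, where 48.6%, 49.6% and 47.3% of all genes tested were below. This list too was chosen with earlier results of these data known, so the count does not test whether E2F targets fell. It gives signs of the changes between groups and not the overlap of libraries. With compound 5, replicate 2 lay within the DMSO range for some targets, as for TK1 (96.7 CPM) and RRM2 (193.8 CPM). For others, as for DTL and MSH6, both libraries of compound 5 lay below DMSO. Of the 20 targets, 10 passed with compound 4 and none with compounds 5 and 6 by edgeR. Of all genes tested, 3.91%, 2.95% and 0.0821% were called lower. At an unadjusted p under 0.05, 17, 10 and 14 of the targets were lower, against 12.4%, 12.8% and 7.72% of all genes. DESeq2 called 15, 4 and 4 of the targets, and 1384, 1284 and 518 genes in all. The list's median log2-fold change was -0.67, -0.37 and -0.50, beside 0.01, 0.00 and 0.02 over all genes tested. TK1, the thymidine kinase of the salvage pathway, went from 95.2 and 107.8 CPM in DMSO to 48.2 and 49.9 CPM with compound 4, a log2-fold change of -1.05 (edgeR adjusted p = 0.015). RRM2, a subunit of ribonucleotide reductase, changed by -0.95 (edgeR adjusted p = 0.024), DTL, part of a ligase that destroys licensing factors, by -0.74 (edgeR adjusted p = 0.015) and MSH6, a mismatch repair gene, by -0.52 (edgeR adjusted p = 0.015). With the replicate block, 1699 genes in all were called with compound 4 and 1429 with compound 5, against 1275 and 1112 without it. In that fit 12 of these targets passed with compound 4 and 3 with compound 5, MSH6 among them (edgeR adjusted p = 0.045). The count with compound 4 fell to 3 without replicate 1 of DMSO or of compound 4, to 0 without replicate 2 of either, and to 6 without either library of compound 6, and it was 16 without either library of compound 5. Promoter windows were at hand for 18 of the 20 targets, and 11 of them (61.1%) held a match to TTTNNCGC.

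The 10 regulators of D cyclin transcription (MYC, JUN, FOSL1, EGR1, KLF6, ATF3, ETS2, STAT3, TCF7L2 and AXIN2) had calls in the higher direction alone. With compound 5, 5 of them passed, and among these EGR1, an immediate early gene, went from 6.35 and 4.52 CPM to 45.0 and 22.8 CPM, a log2-fold change of 2.64 (edgeR adjusted p = 0.0075). FOSL1 rose by 1.53 (edgeR adjusted p = 0.011), JUN by 0.98 (edgeR adjusted p = 0.016) and KLF6 by 1.24 (edgeR adjusted p = 0.022). FOSL1 and JUN encode partners in the AP-1 factor, which binds the CCND1 promoter. With compound 4, 3 passed, namely FOSL1 at 1.11 (edgeR adjusted p = 0.028), AXIN2, a target of Wnt signalling, at 0.46 (edgeR adjusted p = 0.047) and JUN at 0.68 (edgeR adjusted p = 0.048, or 0.054 with the replicate block). None passed with compound 6, where EGR1 stood at 2.02 (edgeR adjusted p = 0.054). Of all genes tested, 5.6%, 5.35% and 0.493% were called higher with compounds 4, 5 and 6. The list's median was 0.57, 0.74 and 0.25 for these compounds, beside 0.01, 0.00 and 0.02 over all genes tested. CCND1 itself was not called with any of them. Across the 7 lists DESeq2 called 32, 14 and 12 genes with compounds 4, 5 and 6, of 1384, 1284 and 518 called in all. Without the filter on low counts edgeR called 37, 19 and 26 genes of the lists, of 2383, 2431 and 1355 called in all. The calls in all were 1429 with compound 5 under the replicate block. They were 1023 with compound 6 when only the 4 samples compared were fitted. The calls of the 7 lists by edgeR with the filter also rested on few libraries. With compound 4 they numbered 22 in all, and 6 without replicate 1 of DMSO, 0 without its replicate 2, 7 without replicate 1 of compound 4, 0 without its replicate 2, 34 and 33 without replicate 1 or 2 of compound 5, and 16 without either library of compound 6. With compound 5 they numbered 6, and 0 without either DMSO library, 1 without its own replicate 1, 27 without its replicate 2 and 12 with the replicate block. With compound 6 they numbered 0, and 11 without either library of compound 5 and 23 when only the 4 samples compared were fitted.

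**Figure D4:**
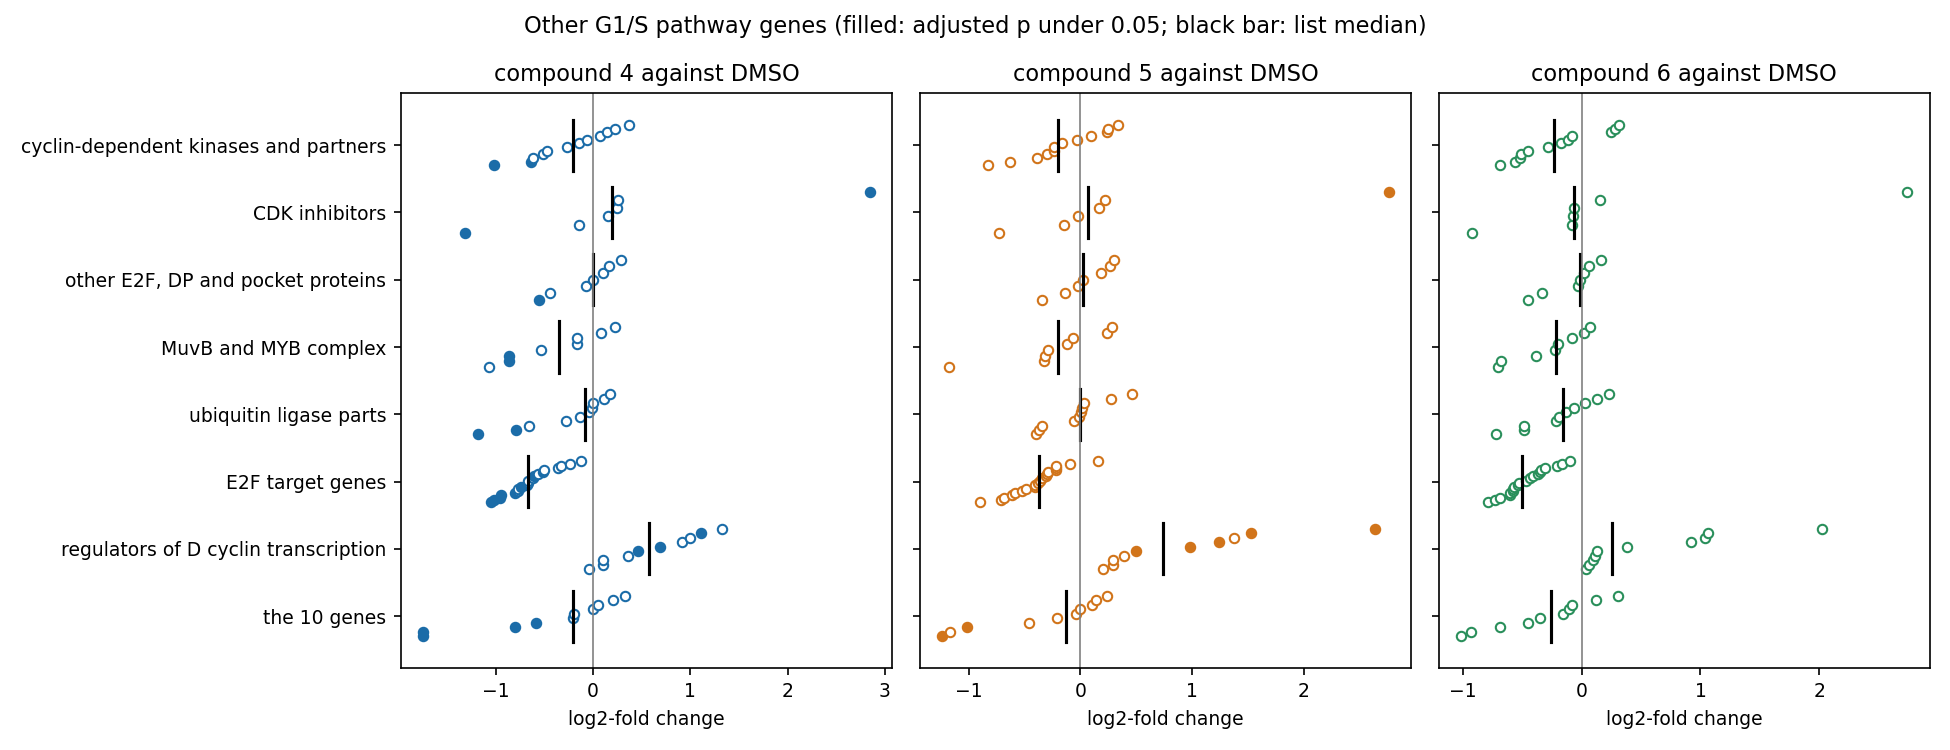
Log2-fold change against DMSO (horizontal axis) of the genes of the 7 other lists and of the 10 genes (rows), in 1 panel per compound, in which filled points passed an edgeR adjusted p of 0.05 and a black bar marks the median of each row. The E2F target genes lie left of 0, except for 1 gene with compound 5, with a median of -0.67 for compound 4, -0.37 for compound 5 and -0.50 for compound 6, and the regulators of D cyclin transcription lie mostly right of it.

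Across the 8 libraries, the genes outside the 10 whose log2 CPM most resembled that of E2F1 among 13390 genes were USP5 (Pearson r 0.968), L3MBTL2 (0.966) and ELP6 (0.964). For CCND1 they were RBPMS (0.972), ERCC6L2-AS1 (0.955) and LENG9 (0.955). These points share their libraries and groups, and the highest values of so many genes are given as a description.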

How the data were processed

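RNA from 8 samples was sequenced. Per the study's methods, the authors checked reads with FastQC 0.12.0, estimated transcript abundance with Salmon 1.5.0 against GENCODE 38 (GRCh38) and summed it per gene with tximeta. The authors deposited these estimated counts as whole numbers without normalization, and 1 table of 60230 Ensembl genes by 8 samples was used. Whether strand was used in counting is not given in the sources used here.

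The tests were run with edgeR 4.0.16 under R 4.3.3. Genes were kept by filterByExpr at a minimum count of 10 (13400 genes), libraries were scaled by TMM, and the 4 groups of 2 samples were fitted together with group as the only term. The quasi-likelihood test was two-sided with Benjamini-Hochberg adjustment over all 13400 genes in each of 6 comparisons, and an adjusted p under 0.05 was called. The SE is the absolute log2-fold change divided by the square root of F, and intervals are 95% intervals from the t distribution. No permutation test was run, since 2 samples against 2 cannot give a two-sided p below 0.333. The fit was tested on simulated data.

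Gene positions and exon lengths came from GENCODE 29 on GRCh38, and names of 41718 genes from a symbol table. The genes and lists were chosen with earlier results of these data known. All 10 genes are named. From each other list, up to 4 called genes per compound with a mean of at least 1 CPM are named, and CDKN1A, CDKN1B, RB1, CDK2, CDK4 and CDK6 in any case, with the 3 genes most like E2F1 and CCND1. Other names serve to list a group, report a marker or name an overlap.

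Replicate numbers are days in the labels, so they were taken as a possible pairing of the samples, which the main fit did not use. The column names of replicate 1 of DMSO and of compound 4 read merged, and those of the other libraries do not. The differences between replicates 2 and 1, over 13400 genes, correlated at r = 0.0569 between DMSO and compound 4, 0.179 between DMSO and compound 5, 0.107 between DMSO and compound 6, -0.149 for compounds 4 and 5, 0.236 for compounds 4 and 6, and -0.0517 for compounds 5 and 6. Alternatives were DESeq2 1.42.0, the replicate block, a fit limited to the 4 samples of a comparison, other size factors, other filters and leaving out each library.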

Additional observations from a re-analysis of the deposited data

How the results depend on the processing

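The count of the 10 genes called with compound 4 was 4 under every alternative that kept all libraries (DESeq2, the replicate block, only the samples compared, DESeq2 size factors, no filter and a stricter filter), and 0 to 4 with a library left out. With compound 5 it was 2, but 4 without a filter on low counts, 3 with the stricter filter and 0 to 4 with a library left out. With compound 6 it was 0, but 4 when only the 4 samples compared were fitted, 3 without a filter, and 0 to 2 with a library left out. Between compounds it was 0 under every alternative. The calls over all genes moved as well, from 1275, 1112 and 77 with compounds 4, 5 and 6 to 2383, 2431 and 1355 without a filter. They were 1402, 1250 and 198 with the stricter filter, and 1553, 847 and 1023 with only the samples compared. With the replicate block the counts of the 10 genes stayed at 4, 2 and 0 against DMSO, where 1699, 1429 and 68 genes were called in all. Beyond the changes given in the report (JUN with compound 4, and CCNA2 and MSH6 with compound 5), the block changed no call of a named gene. For compounds 4 and 5, the pairing with crossed numbers, chosen after seeing the data, called 278 genes and none of the 10. The alternatives for the other lists were also added after seeing the data. The adjusted p over all alternatives of compound 4 ran from 2.9e-11 to 0.055 for E2F7, 4.6e-08 to 0.17 for E2F8, 0.00023 to 0.26 for E2F2 and 0.003 to 0.25 for RBL1. With compound 5 it ran from 2.8e-06 to 0.1 for E2F7 and from 1.6e-06 to 0.15 for E2F2. With 2 libraries a group, genes of few counts such as CCNE2 and E2F8 had the widest intervals. With one library of a group left out, the lone sample is assumed to vary like the other groups. Leaving out all of replicate 1 or 2 gave values with no test. The stricter filter gave no value for CDKN2B.

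With all libraries kept, signs turned only for the values below, which lay near 0, and the cause was not tested. E2F3 with compound 4 was -0.0067 by DESeq2, -0.0060 with only the samples compared, -0.010 with DESeq2 size factors, -0.0069 without a filter and -0.0018 with the stricter filter. CCND3 with compound 5 was 0.00042 without a filter. Between compounds 4 and 5, E2F1 was -0.0054 by DESeq2 and -0.012 without a filter, and between compounds 6 and 5, RBL1 was -0.0056 and -0.014.

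With 1 library or all of 1 replicate number left out, the values below took both signs. For compound 4 against DMSO they ran from -0.0099 to 0.097 for CCND3, -0.17 to 0.93 for CCNE2, -0.38 to 0.073 for CDK6 and -0.21 to 0.25 for E2F3. For compound 5 against DMSO they ran from -0.056 to 0.27 for CCND1, -0.20 to 0.16 for CCND3, -0.23 to 0.10 for CCNE1, -0.13 to 0.75 for CCNE2, -0.16 to 0.087 for CDK4, -0.088 to 0.41 for E2F3, -0.75 to 0.011 for MYBL2 and -0.21 to 0.15 for RB1. For compound 6 against DMSO they ran from -0.0045 to 0.22 for AXIN2, -0.059 to 0.82 for CCNE2, -0.28 to 0.019 for CDK6, -0.0063 to 0.30 for CDKN1A, -0.23 to 0.058 for CDKN1B, -0.37 to 0.096 for E2F3, -0.015 to 0.77 for JUN and -0.085 to 0.0077 for RB1. For compound 4 against 5 they ran from -0.13 to 0.27 for CCND3, -0.31 to 0.046 for CCNE1, -0.15 to 0.34 for CCNE2, -0.21 to 0.27 for E2F1, -0.057 to 0.59 for E2F2, -1.22 to 0.35 for E2F8 and -0.33 to 0.11 for RBL1. For compound 6 against 5 they ran from -0.040 to 0.083 for CCND1, -0.28 to 0.11 for CCND3, -0.19 to 0.15 for CCNE1, -0.15 to 0.25 for CCNE2, -0.36 to 0.13 for E2F1, -0.016 to 0.73 for E2F7, -0.33 to 0.87 for E2F8 and -0.31 to 0.36 for RBL1. For compound 4 against 6 they ran from -0.30 to 0.37 for CCNE2.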
